A study of Homo sapiens with 12 samples.

Results

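Aminoacyl-tRNA synthetases attach each amino acid to its own transfer RNA, the step that lets the ribosome read the genetic code. For most amino acids human cells keep separate enzymes, from separate genes, for the cytosol and for the mitochondrion. By convention the symbols end in 1 and 2. Among the exceptions, the genes for glycine (GARS1) and lysine (KARS1) serve both compartments. The members listed here hold no mitochondrial partner of the glutamine gene QARS1. Several cytosolic enzymes sit in a multi-synthetase complex held together by the scaffold proteins AIMP1, AIMP2 and EEF1E1. Many cytosolic synthetase genes are known targets of ATF4, the transcription factor of the amino acid response, which binds DNA at C/EBP-ATF response elements.

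The genes described here are 38 listed members: 19 cytosolic synthetases, 3 scaffold genes and 16 mitochondrial synthetases. They were found through the platform annotation, which gave 44 probe sets for 30 of them among 22277 probe sets on the array. The other 8 members (FARSB, AIMP2, EEF1E1, AARS2, EARS2, MARS2, PARS2 and VARS2) had no probe set. Another 3 members, MARS1, QARS1 and TARS2, were covered only by probe sets that also name a microRNA gene and were fitted apart. RARS2 lay under the filter on low values, so 26 members were tested among 8021 genes: 16 cytosolic synthetases, AIMP1 and 9 mitochondrial synthetases.

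The RNA came from K562, a human chronic myeloid leukaemia line that carries the BCR-ABL1 kinase, grown in RPMI medium with serum. Cells received 0.05 µM nilotinib (AMN107), 0.5 µM imatinib (STI571) or the solvent DMSO for 24 h, with 4 Affymetrix U133A 2.0 arrays per group. Both drugs are ABL kinase inhibitors, and nilotinib was developed from imatinib. The labels call each dose the inhibitory IC50 dose, so the doses differ between the drugs. The labels do not say whether the 4 samples of a group were separate cultures, so the p-values reflect only the variation among the samples at hand, and that variation may be technical. In bulk RNA, fewer cells of a type and less RNA per cell cannot be told apart.

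All arrays were scaled by the submitters to nearly the same trimmed mean, but their median signals differed. The median was 119 ± 2.17 on DMSO arrays, 142 ± 8.71 on imatinib arrays and 179 ± 12.1 on nilotinib arrays (SD over 4 arrays). The ratio of 3' to 5' actin control signal, a sign of RNA integrity, exceeded 3.5 on nilotinib replicates 1 and 2 and imatinib replicates 5 and 6. Of 11 K562 marker genes 8 were measured, all above the filter, and their summed signal ran from 43174 to 48626 on DMSO arrays, from 73378 to 80968 on imatinib arrays and from 81929 to 90249 on nilotinib arrays. Markers of other blood cells and fibroblasts stayed low apart from LYZ: 5 of 7 measured lymphocyte markers, 1 of 8 monocyte and granulocyte markers and 2 of 6 fibroblast markers passed the filter. Lymphocyte marker sums ran from 623 to 718 (DMSO), 495.0 to 824 (imatinib) and 639 to 1026 (nilotinib). The sums for monocyte and granulocyte markers were 3002 to 3282, 2125 to 2858 and 1996 to 2735 in the same order, and for fibroblast markers 319.6 to 573, 367 to 674 and 746 to 809.96. The part of the marker and scaling shifts in the results below was not tested.

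Promoter sequences are shown because ATF4 binds DNA at a known short word, which some synthetase genes carry near their start. RefSeq promoter windows (GRCh38.p14), from 250 bases before to 50 after the gene start, were found for 33 of the 38 members, all but LARS1, VARS1, YARS1, AARS2 and VARS2. The word TGATGNAA, the core of the C/EBP-ATF response element, was searched on both strands. It was present in 7 of 16 cytosolic synthetase genes with a window, in 1 of 14 mitochondrial ones and 0 of 3 scaffold genes. The share among all 27305 genes was 4.46%. Other words were searched in the same windows. CACGTG was present in 1 of 16 cytosolic, 3 of 14 mitochondrial and 1 of 3 scaffold genes, against 8.77% of all genes. A word of 10 bases was present in 0 of 16, 1 of 14 and 0 of 3, against 1.52% of all genes. In capitals is TGATGNAA or its reverse complement, read along the gene's own strand, with 10 flanking bases on each side.
AARS1, chr16:70289676-70289703, minus strand: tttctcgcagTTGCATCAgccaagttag
CARS1, chr11:3057408-3057435, minus strand: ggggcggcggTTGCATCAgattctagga
GARS1, chr7:30594835-30594862, plus strand: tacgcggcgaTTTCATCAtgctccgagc
IARS1, chr9:92293693-92293720, minus strand: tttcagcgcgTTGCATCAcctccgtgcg
MARS1, chr12:57488054-57488081, plus strand: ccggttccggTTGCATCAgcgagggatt
NARS1, chr18:57621805-57621832, minus strand: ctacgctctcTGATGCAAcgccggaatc
TARS1, chr5:33440957-33440984, plus strand: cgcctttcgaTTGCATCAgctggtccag
YARS2, chr12:32756077-32756104, minus strand: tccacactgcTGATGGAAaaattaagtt
In 6 of the 7 cytosolic genes the word stood on the strand opposite to the gene, and NARS1 had it on the gene's own strand. The words of CARS1 and MARS1 spanned the gene start itself. In IARS1 the word lay from -13 to -6 and in AARS1 from -187 to -180, counted from the gene start.

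Most cytosolic synthetases fell with each drug, and most mitochondrial ones did not pass the test. By their brightest probe sets EPRS1 and FARSA were called with neither drug, though another EPRS1 probe set was called lower with both. LARS1 was not called with nilotinib, and QARS1, fitted apart, was called higher with both. With imatinib, 14 of the 16 tested cytosolic synthetases were called lower and 0 higher at an adjusted p under 0.05 (limma, adjusted over all genes), where 17.3% of all genes tested were called lower and 22.0% higher. With nilotinib, 13 of 16 were called lower and 0 higher, where the shares of all genes were 23.5% lower and 34.7% higher. The median log2 fold change of the cytosolic synthetases was -0.96 with imatinib and -1.14 with nilotinib, beside 0.09 and 0.15 for all genes. A fall of at least 1 on the log2 scale was reached by 7 of 16 with imatinib (2.77% of all genes) and 10 of 16 with nilotinib (5.42% of all genes). In 13 of the 16, all 4 drug arrays were below all 4 DMSO arrays, with each drug, against 17.6% of all genes with imatinib and 20.9% with nilotinib. Of the 9 mitochondrial synthetases, 3 were separated downward in that way with each drug, against the same 17.6% and 20.9% of all genes. CARS2 was separated upward with imatinib, as were 1721 of the 8021 genes. The test called 2 of the 9 lower with imatinib (17.3% of all genes) and 3 with nilotinib (23.5%), with medians of -0.06 and -0.34. Both comparisons use the same DMSO arrays.

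**Figure D1:**
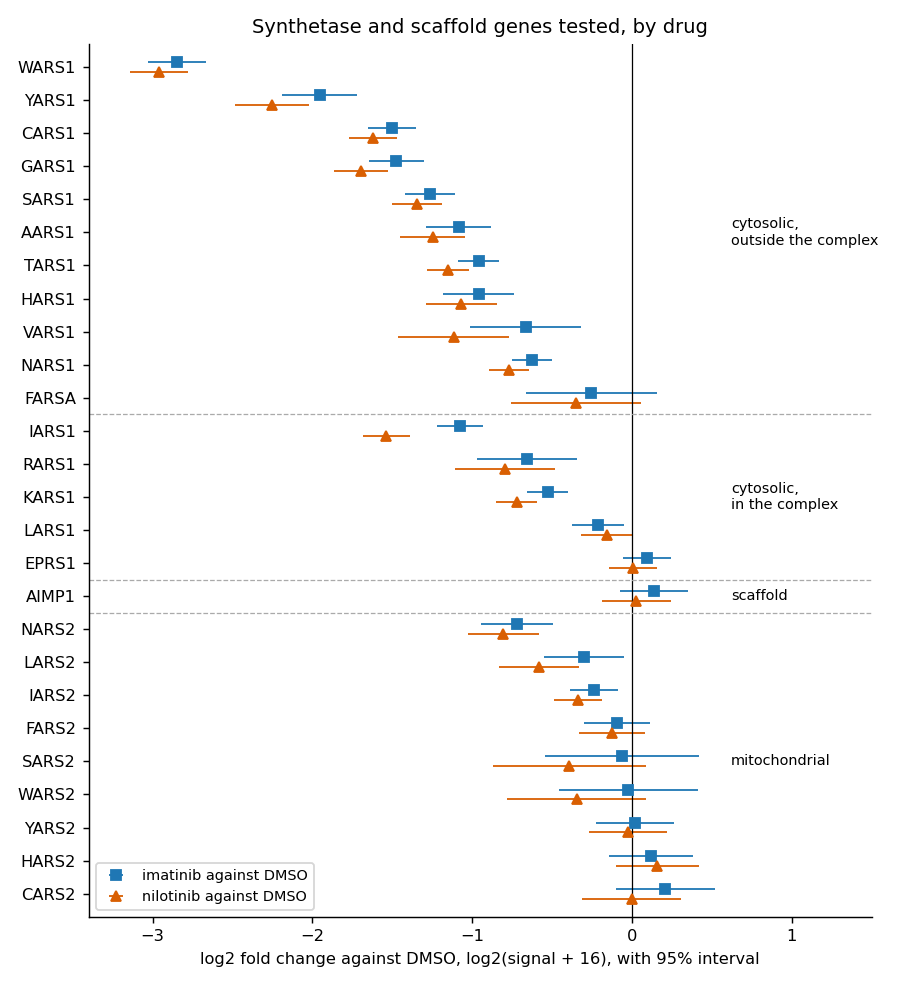
Log2 fold change against DMSO on log2(signal + 16) for the 26 tested members, with bars for the 95% interval; squares are imatinib and triangles nilotinib, 4 arrays per group. WARS1 lies at -2.84 and -2.96, the other called cytosolic genes between -2.25 and -0.21, and the mitochondrial genes between -0.80 and 0.21.

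WARS1, the cytosolic tryptophanyl-tRNA synthetase, changed most. Its signal was 6311, 6222, 6718 and 6396 on the DMSO arrays, 841, 811, 934 and 935 on the imatinib arrays, and 689.6, 791, 859.6 and 914 on the nilotinib arrays. Every drug array lay far below every DMSO array, and the drugs overlapped each other. The log2 fold change was -2.84 ± 0.09 (SE, adjusted p = 1.07e-14) with imatinib and -2.96 ± 0.09 (adjusted p = 2.57e-15) with nilotinib, or 7.18-fold and 7.79-fold lower on the log2(signal + 16) scale. Counted from the most negative change, WARS1 stood in place 9 of 8021 genes with imatinib and in place 7 with nilotinib. Its other probe set gave -2.91 ± 0.33 and -3.44 ± 0.33. Neither of the 2 WARS1 promoter windows held TGATGNAA.

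YARS1, the tyrosyl enzyme, came next. The DMSO arrays read 3701, 4139.6, 4362 and 3982, the imatinib arrays 864, 1012, 1003 and 1279, and the nilotinib arrays 951, 880.1, 689 and 841. All drug arrays were below all DMSO arrays, with log2 fold changes of -1.96 ± 0.11 and -2.25 ± 0.11 (SE).

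GARS1, CARS1, SARS1, AARS1 and TARS1 also act outside the multi-synthetase complex. GARS1, for glycine, had signals of 7534, 6890.2, 7889.8 and 7978 with DMSO, 2503, 2854, 2744 and 2759 with imatinib, and 1979, 2305, 2623 and 2436 with nilotinib. CARS1, for cysteine, had 5707, 5381, 5855 and 5768 with DMSO, 2083, 1884, 1908 and 2109.6 with imatinib, and 1933, 1695, 1995 and 1724 with nilotinib. Between GARS1 and CARS1, the lowest DMSO value was 5381, in CARS1, and the highest drug value 2854, in GARS1. The log2 fold changes of GARS1 were -1.47 ± 0.08 and -1.70 ± 0.08, and those of CARS1 -1.50 ± 0.07 and -1.62 ± 0.07 (SE, imatinib and nilotinib). A dimmer CARS1 probe set was also called lower, by -1.12 and -0.81.

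SARS1, for serine, read 4714, 4500.2, 5001 and 5218 with DMSO, 1933, 2211, 1828 and 2088 with imatinib, and 1940.1, 1784, 1966 and 1906 with nilotinib. AARS1, for alanine, read 3433, 3640.0, 3509 and 3113 with DMSO, 1433, 1521, 1685 and 1802 with imatinib, and 1279, 1327, 1753 and 1411 with nilotinib. TARS1, for threonine, read 6765, 7518, 7310.4 and 6937 with DMSO, 3742, 3757, 3666 and 3460.3 with imatinib, and 3365, 3152, 3304 and 2967 with nilotinib. In each of these genes the drug arrays lay below the DMSO arrays without overlap, and in TARS1 all nilotinib arrays were also below all imatinib arrays. The log2 fold changes with imatinib and nilotinib were -1.26 and -1.35 for SARS1, -1.08 and -1.25 for AARS1, and -0.96 and -1.15 for TARS1, with SE of 0.07, 0.10 and 0.06.

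**Figure D2:**
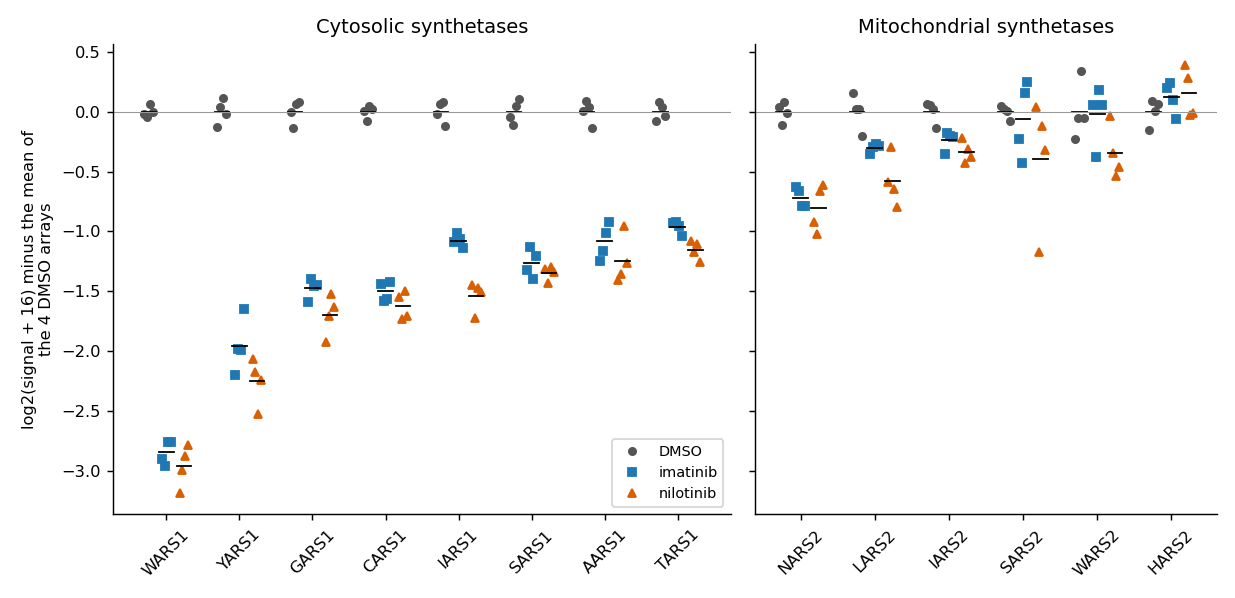
log2(signal + 16) of each array minus the mean of the 4 DMSO arrays for the 8 cytosolic (left) and 6 mitochondrial (right) synthetases with the largest mean change; points are arrays and black lines group means. All drug arrays of the 8 cytosolic genes sit apart from DMSO, while SARS2, WARS2 and HARS2 overlap with it.

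The remaining genes outside the complex fell less. HARS1, for histidine, had log2 fold changes of -0.96 ± 0.11 and -1.07 ± 0.11 (SE), VARS1, for valine, -0.67 ± 0.16 and -1.12 ± 0.16, and NARS1, for asparagine, -0.63 ± 0.06 and -0.77 ± 0.06, with imatinib and nilotinib. All 3 were called with both drugs. Without the 4 arrays of high actin ratio the VARS1 call with imatinib was lost, at -0.50 with an adjusted p of 0.0573. A dimmer VARS1 probe set lay under the filter and read from 10.2 to 159 with DMSO and from 36.2 to 231 with the drugs. FARSA, the catalytic subunit of the phenylalanyl enzyme, was not called, at -0.25 ± 0.20 and -0.35 ± 0.20, nor was its other probe set. With nilotinib FARSA was called lower with the mean of its probe sets (-0.39, adjusted p = 0.0130), with median centring (-0.87, 3.83e-04), without imatinib replicate 8 (-0.35, 0.0294) and in a fit of the 2 groups alone (-0.35, 0.0421). With imatinib it was called under median centring (-0.48, 0.0479) and was at 0.0029 without imatinib replicate 8. In all, 10 of the 11 tested genes outside the complex were called lower with each drug, against 17.3% of all genes with imatinib and 23.5% with nilotinib.

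Inside the multi-synthetase complex the members differed among themselves. IARS1, for isoleucine, read 10006, 10602.5, 10702 and 9318 with DMSO, 4769, 5003, 4844 and 4588 with imatinib, and 3714, 3061, 3641 and 3563 with nilotinib. The 3 groups did not overlap, with DMSO highest and nilotinib lowest, and the log2 fold changes were -1.08 ± 0.07 and -1.54 ± 0.07 (SE). RARS1, for arginine, had -0.66 ± 0.15 and -0.80 ± 0.15, and KARS1, for lysine, -0.53 ± 0.06 and -0.72 ± 0.06, all called. Both KARS1 probe sets were called lower with each drug.

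LARS1, for leucine, changed little: -0.21 ± 0.08 (SE) with imatinib, called at an adjusted p of 0.0364, and -0.15 ± 0.08 with nilotinib, not called (0.0961). Its probe set is of a type that can bind related transcripts. Leaving out imatinib replicate 5, 6 or 7 or DMSO replicate 9, 10 or 12 each ended the imatinib call, with adjusted p from 0.0576 to 0.111, and leaving out DMSO replicate 11 brought a nilotinib call at 0.0442. Of the 5 tested members of the complex, 4 were called lower with imatinib (17.3% of all genes) and 3 with nilotinib (23.5%). MARS1 and QARS1, also of the complex, were fitted apart and are not in this count.

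EPRS1, a fused enzyme for glutamate and proline, depended on the probe set. The brightest read 4142, 4185, 4274 and 4033 with DMSO, 4586, 5044, 3979 and 4225 with imatinib, and 4419.7, 4287, 4066 and 3941.5 with nilotinib. These groups overlapped, and the log2 fold changes of 0.09 ± 0.07 and 0.01 ± 0.07 (SE) were not called. With quantile normalization the same probe set was called higher, by 0.17 and 0.18, while with median centring it was -0.13 and -0.52 and the latter was called. The second probe set read 3422, 4009.9, 3517 and 3359.6 with DMSO, 3049, 3349.9, 2593 and 2714 with imatinib, and 2274, 2566, 2869.6 and 2022 with nilotinib. There every drug array was below every DMSO array, and log2 fold changes of -0.29 ± 0.10 and -0.56 ± 0.10 were called (adjusted p = 0.0329 and 1.69e-04, over all probe sets tested). The third, dimmer one gave -0.02 and -0.13, not called.

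AIMP1, a scaffold protein of the complex, was split in the same manner. The brighter probe set ran from 1307 to 1428 with DMSO, from 1388 to 1650.25 with imatinib and from 1099.8 to 1638 with nilotinib, and was not called (0.14 ± 0.10 and 0.03 ± 0.10, SE). The dimmer one read 1166, 1054, 862 and 916 with DMSO, 636, 654, 585 and 469 with imatinib, and 613, 397, 495 and 538 with nilotinib. It did not overlap between DMSO and either drug and was called lower, by -0.76 ± 0.14 and -0.95 ± 0.14. No direction is given for AIMP1 as a gene. Which transcripts each probe set reads was not tested.

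MARS1 and QARS1, the methionine and glutamine enzymes of the complex, were measured only by probe sets that also name MIR6758 and MIR6890. They were fitted with microRNA names dropped, an alternative chosen after seeing the data. MARS1 read 3414, 3556, 3461 and 3264 with DMSO, 998, 1259.9, 1227 and 1081 with imatinib, and 1171, 886, 805 and 1011 with nilotinib, and was called lower (-1.58 ± 0.10 and -1.82 ± 0.10, SE). QARS1 went the other way. It read 2603, 2886, 2932 and 2603 with DMSO, 3602, 3931, 4180.3 and 4217 with imatinib, and 3351, 4034, 4001 and 3411 with nilotinib. All 8 drug arrays were above all DMSO arrays, and log2 fold changes of 0.53 ± 0.08 and 0.42 ± 0.08 were called higher (adjusted p = 2.39e-05 and 1.76e-04). QARS1 stayed called higher with imatinib under median centring (0.30), but with nilotinib that scaling turned it to -0.10, not called. Quantile normalization gave 0.60 with each drug. MARS1 has TGATGNAA at its gene start, whereas the QARS1 window does not hold it.

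With the members grouped by the word, all 6 tested cytosolic genes that carry TGATGNAA in a window were called lower with each drug, where 17.3% and 23.5% of all genes were, with medians of -1.08 and -1.39. Of the 7 tested cytosolic genes whose windows lack it, 5 were called lower with each drug, with medians of -0.66 and -0.80. Their range includes both WARS1 and EPRS1 (brightest probe set). LARS1, VARS1 and YARS1, also tested, had no window and are in neither group. They had -0.21, -0.67 and -1.96 with imatinib and -0.15, -1.12 and -2.25 with nilotinib. A window shows only bases near the gene start, so the word may stand elsewhere in a gene whose window lacks it. The only mitochondrial carrier, YARS2, was at 0.02 ± 0.12 and -0.02 ± 0.12 (SE) and was not called. These are descriptions of a few genes, and no test of the word was made.

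NARS2, the mitochondrial asparaginyl-tRNA synthetase, had the largest change among the 9 mitochondrial genes tested. It read 1039, 935, 1072 and 1003 with DMSO, 649, 631, 577 and 579.7 with imatinib, and 527, 489, 633 and 655 with nilotinib. No drug array reached the lowest DMSO array. The log2 fold changes of -0.72 ± 0.11 and -0.80 ± 0.11 (SE, adjusted p = 2.39e-05 and 3.92e-06) were both called and were the lowest of the 9 mitochondrial genes. NARS1, its cytosolic counterpart, had -0.63 and -0.77.

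LARS2, the mitochondrial leucyl enzyme, read 771, 702, 705 and 601 with DMSO, 538, 560.1, 571 and 566 with imatinib, and 454, 562.1, 435 and 393 with nilotinib. All drug arrays were below DMSO, and the change of -0.58 ± 0.12 (SE) with nilotinib was called, but that of -0.30 ± 0.12 with imatinib missed the threshold (adjusted p = 0.0515). Leaving out nilotinib replicate 2 or 4 or DMSO replicate 12 brought the imatinib value under it, at adjusted p from 0.0284 to 0.0424. The other LARS2 probe set gave -0.15 ± 0.17 and 0.00 ± 0.17, and with the mean of both probe sets the nilotinib call was lost (-0.29, adjusted p = 0.057).

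IARS2, for mitochondrial isoleucine, read 3160.2, 3140.5, 3070.2 and 2747 with DMSO, 2363, 2666.5, 2627 and 2603 with imatinib, and 2589.7, 2243, 2430.0 and 2328 with nilotinib. No drug array reached the lowest DMSO array, and small changes of -0.24 ± 0.07 and -0.34 ± 0.07 (SE) were called with both drugs. Quantile normalization reduced both to -0.16 and ended the calls (adjusted p = 0.0778 and 0.0634).

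SARS2 and WARS2, for mitochondrial serine and tryptophan, varied between arrays. SARS2 read 286, 280.1, 277 and 259 with DMSO, 233, 200.3, 309 and 330.2 with imatinib, and 284, 113, 252 and 218 with nilotinib. WARS2 read 169, 193, 258 and 193 with DMSO, 209, 150.4, 229.7 and 209.6 with imatinib, and 196, 155, 133 and 142 with nilotinib. Each drug group overlapped DMSO in both genes, and nilotinib replicate 2 was the lowest SARS2 array. Neither was called: SARS2 had -0.06 ± 0.23 and -0.39 ± 0.23, and WARS2 -0.02 ± 0.21 and -0.34 ± 0.21 (SE). Under quantile normalization, cyclic loess and median centring both were called lower with nilotinib, SARS2 by -0.73 to -0.91 and WARS2 by -0.78 to -0.87.

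HARS2, the mitochondrial histidyl enzyme, had the most positive value with nilotinib among the 26 tested members. It read 419.7, 499.8, 469 and 489 with DMSO, 541, 557, 502 and 448 with imatinib, and 617, 573, 460.4 and 465 with nilotinib. The groups overlapped, and 0.12 ± 0.13 and 0.16 ± 0.13 (SE) were not called. Median centring turned them to -0.11 and -0.36 and called the latter (adjusted p = 0.0276).

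HARS1 and HARS2 are neighbours on chromosome 5, read from opposite strands, and their RefSeq starts stand head to head with 84 bases between them. The stretch is shown because the genes on its sides are a cytosolic and mitochondrial pair. It spans chr5:140691371-140691454 (GRCh38.p14) and is printed on the plus strand, with HARS1 to its left.
HARS1/HARS2: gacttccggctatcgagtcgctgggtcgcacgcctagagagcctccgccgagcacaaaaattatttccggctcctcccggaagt
To the left of it HARS1 read 1166, 1392, 1329 and 1136 with DMSO, 528, 682, 648 and 701 with imatinib, and 572, 634, 578 and 569.7 with nilotinib, with no overlap between DMSO and either drug. To the right of it HARS2 overlapped between all groups. The log2 ratio of HARS1 to HARS2 within an array, relative to DMSO, was -1.08 ± 0.27 with imatinib and -1.23 ± 0.19 with nilotinib (SD over 4 arrays, DMSO SD 0.13).

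CARS2, FARS2 and YARS2, for mitochondrial cysteine, phenylalanine and tyrosine, were not called with either drug and lay between -0.12 and 0.21. The 4 imatinib arrays of CARS2 were above its 4 DMSO arrays (402 to 488 against 358 to 383), yet 0.21 ± 0.15 (SE) was not called (adjusted p = 0.283). The 95% intervals of these 3 genes ran from -0.33 to 0.52. TARS2, measured by a probe set that also names MIR6878, read 166 to 268 on the DMSO arrays, 42.0 to 207 with imatinib and 42.3 to 231 with nilotinib. Its changes of -0.90 ± 0.45 and -1.03 ± 0.45 (SE) were not called. With nilotinib TARS2 was called lower under quantile normalization (-1.48, adjusted p = 0.0158), cyclic loess (-1.55, 0.0088) and median centring (-1.55, 0.00545). Without the arrays of high actin ratio it was -0.14 with nilotinib, not called, and -1.11 with imatinib, called (0.0382). RARS2 read 1.83 to 4.14 on the DMSO arrays, 2.21 to 48.0 with imatinib and 18.5 to 65.2 with nilotinib in its probe set of higher mean, all under the filter signal of 80.6. In a fit with no filter RARS2 was called higher with nilotinib (1.51 ± 0.37, adjusted p = 0.00329).

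The compartments were set side by side on each array, with GARS1 and KARS1, which serve both compartments, counted as cytosolic. Relative to the DMSO mean, the mean of the 16 cytosolic synthetases was -0.998 ± 0.04 with imatinib and -1.17 ± 0.02 with nilotinib (SD over 4 arrays). The mean of the 9 mitochondrial synthetases was -0.12 ± 0.04 and -0.27 ± 0.07. Within an array the cytosolic mean fell below the mitochondrial mean by -0.88 ± 0.06 with imatinib and -0.90 ± 0.07 with nilotinib, and the DMSO arrays spread around 0 with an SD of 0.04. Every drug array had a difference of -0.79 or lower, and no DMSO array was below -0.04.

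**Figure D3:**
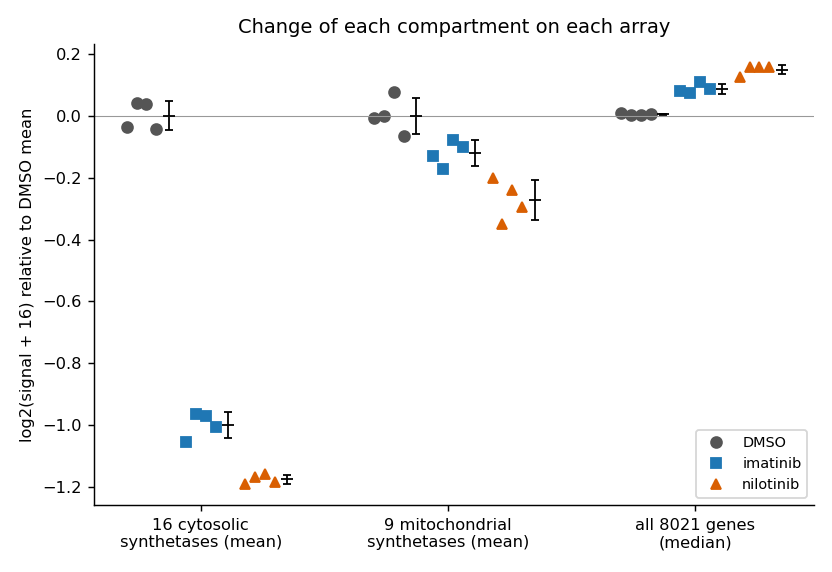
Mean log2(signal + 16) of the tested cytosolic and mitochondrial synthetases and median of all 8021 genes on each array, relative to the DMSO mean; points are arrays and bars the mean ± SD of 4 arrays. Cytosolic means sit between -1.19 and -0.96 on drug arrays, mitochondrial means between -0.35 and -0.08, and the median of all genes above 0.

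The scaling of the arrays changed the number of mitochondrial calls. Centring each array on its median moved the median of all genes to -0.13 with imatinib and -0.37 with nilotinib. On that scale the mitochondrial medians were -0.29 and -0.86 and all 9 mitochondrial synthetases were called lower with nilotinib, beside cytosolic medians of -1.18 and -1.66. With quantile normalization the median of all genes was 0.02 and 0.00, the cytosolic medians -0.92 and -1.11, and the mitochondrial medians -0.16 and -0.20. The gap between the compartment means was -0.79 and -0.68 with quantile normalization and -0.80 and -0.69 with cyclic loess. It was unchanged by median centring, and -0.90 with either drug without the arrays of high actin ratio. With microRNA names dropped, which brings in MARS1, QARS1 and TARS2, the gap was -0.75 with imatinib and -0.77 with nilotinib. With no filter, which brings in RARS2, it was -0.96 and -1.08. Lower calls made up 1390 and higher calls 1767 of the genes called with imatinib as deposited, and 2276 and 820 under median centring. With nilotinib the split was 1885 and 2781 as deposited, 2076 and 1982 with quantile normalization, 2081 and 2028 with cyclic loess, and 3947 and 831 with median centring.

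**Figure D4:**
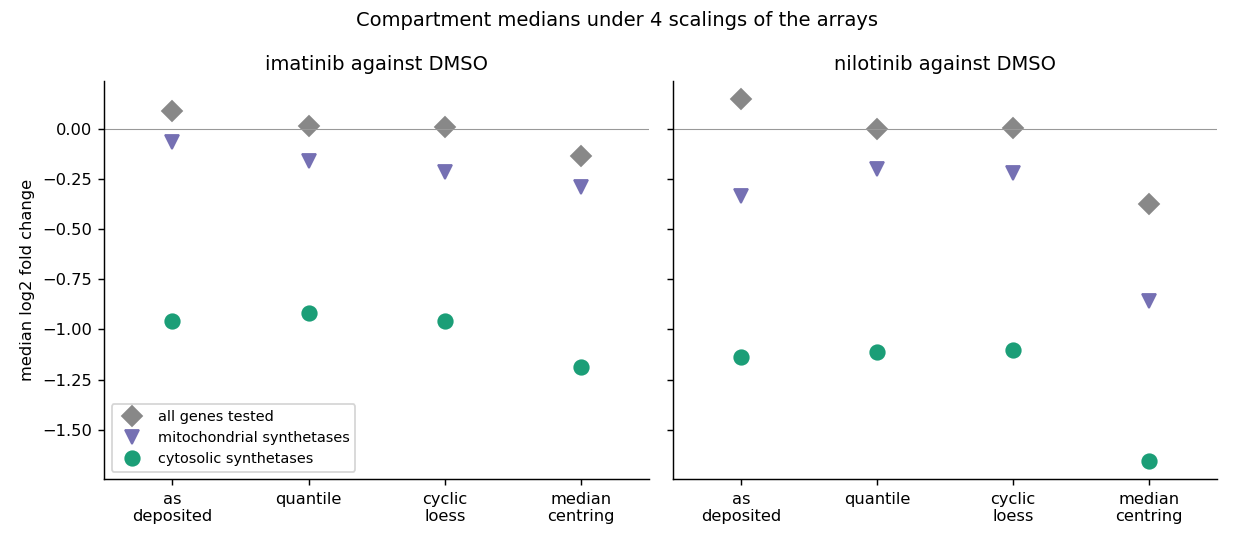
Median log2 fold change of the cytosolic synthetases (circles), mitochondrial synthetases (triangles) and all genes tested (diamonds) under 4 scalings of the arrays, for imatinib (left) and nilotinib (right). The cytosolic median is the lowest in each column, from -0.92 to -1.66, and the mitochondrial median moves from -0.34 to -0.86 with nilotinib between the deposited scale and median centring.

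For 9 amino acids both the cytosolic and the mitochondrial enzyme were among the tested members, so each pair could be compared within an array. Threonine and arginine were left out, because TARS2 was fitted apart and RARS2 lay under the filter. TARS2 had -0.90 ± 0.45 and -1.03 ± 0.45 (SE, not called), beside -0.96 and -1.15 for TARS1. RARS2, in the fit with no filter, had 0.76 and 1.51 at dim signals, beside -0.66 and -0.80 for RARS1. In 6 pairs the log2 ratio of the cytosolic to the mitochondrial gene was lower on all 8 drug arrays than on all DMSO arrays. Tryptophan stood lowest, at -2.82 ± 0.18 with imatinib and -2.62 ± 0.39 with nilotinib (SD over 4 arrays, DMSO SD 0.20), then tyrosine at -1.97 ± 0.26 and -2.23 ± 0.30. Cysteine (-1.71 and -1.62), serine (-1.20 and -0.95), histidine (-1.08 and -1.23) and isoleucine (-0.84 and -1.20) followed. Phenylalanine, leucine and asparagine did not separate. The phenylalanine ratio was -0.16 ± 0.48 and -0.23 ± 0.28. The leucine ratio was above the DMSO mean, at 0.09 ± 0.05 and 0.43 ± 0.29 (DMSO SD 0.23). The asparagine ratio was 0.09 ± 0.02 and 0.03 ± 0.24, with both of its genes called lower.

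**Figure D5:**
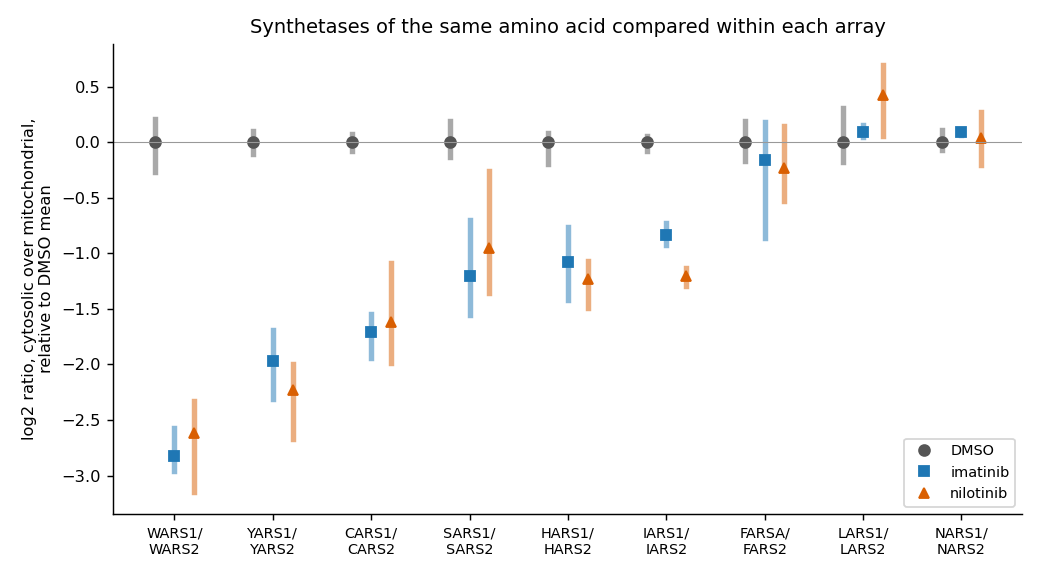
Log2 ratio of the cytosolic over the mitochondrial synthetase for the same amino acid within each array, relative to the DMSO mean; symbols are group means and bars the range of 4 arrays. The pairs from tryptophan to isoleucine lie below DMSO with both drugs, while FARSA/FARS2, LARS1/LARS2 and NARS1/NARS2 overlap with it.

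Nilotinib and imatinib were then compared with each other, at the different doses given. Of the 16 cytosolic synthetases 3 were called lower with nilotinib and 0 higher, where 8.22% of all genes were called lower and 5.82% higher, and of the 9 mitochondrial ones 0 were called. IARS1 was lower by -0.46 ± 0.07 (SE, adjusted p = 3.40e-04), with no overlap between the 4 nilotinib and 4 imatinib arrays. The nilotinib arrays lay wholly below the imatinib arrays in 4 of the 16 cytosolic genes (IARS1, KARS1, TARS1 and VARS1), against 8.54% of all genes. KARS1 (-0.19 ± 0.06, adjusted p = 0.0433) and TARS1 (-0.19 ± 0.06, adjusted p = 0.0461) were close to the threshold. Without the arrays of high actin ratio their adjusted p became 0.198 and 0.221. Leaving out nilotinib replicate 3 or 4, imatinib replicate 5 or 6 or DMSO replicate 10, 11 or 12 ended the KARS1 call, and the same held for TARS1, where nilotinib replicate 2 and imatinib replicate 7 did so too.

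WARS1 was not called different between the drugs (-0.12, 95% interval -0.30 to 0.06), nor were YARS1 (-0.30, -0.53 to -0.06, adjusted p = 0.0786), GARS1 (-0.22, adjusted p = 0.0722) and VARS1 (-0.45, -0.80 to -0.10, adjusted p = 0.0726). VARS1 was called under quantile normalization (-0.63) and cyclic loess (-0.54) and without DMSO replicate 10 (adjusted p = 0.0431), and GARS1 without nilotinib replicate 3 (adjusted p = 0.0343). YARS1 was called without nilotinib replicate 1 (adjusted p = 0.0495), without imatinib replicate 5 (0.034) and without the arrays of high actin ratio (-0.56, 0.0211). The median difference was -0.14 for the cytosolic synthetases, -0.10 for the mitochondrial ones and 0.05 for all genes. No mitochondrial synthetase passed the test (limma), and the 95% intervals of these 9 genes ran from -0.81 to 0.30.

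Genes around the synthetases were counted from lists of the same pathway. Of 29 tested genes, ATF4 and its targets outside the synthetases, 26 were called lower and 0 higher with imatinib (all genes 17.3% and 22.0%). With nilotinib 26 were called lower and 1 (SLC6A9) higher (all genes 23.5% and 34.7%). The medians of the list were -1.65 with imatinib and -1.58 with nilotinib, beside -0.96 and -1.14 for the cytosolic synthetases. Under quantile normalization, cyclic loess and median centring 0 genes of this list were called higher with nilotinib. Without the arrays of high actin ratio 1 was. CTH, the cystathionine gamma-lyase of cysteine synthesis, had log2 fold changes of -2.64 and -2.76. ATF4 itself, counted among the 29 and chosen for naming after its values were seen, had -1.11 ± 0.06 and -0.96 ± 0.06 (SE).

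Among 24 genes of tRNA processing, modification and export, 9 were called lower and 2 higher with imatinib (all genes 17.3% and 22.0%), and 12 lower and 2 higher with nilotinib (all genes 23.5% and 34.7%), with medians of -0.20 and -0.35. XPOT, which carries tRNA out of the nucleus, had -1.01 ± 0.09 and -1.17 ± 0.09 (SE). RPP40 and POP7, subunits of the RNase P family that trims tRNA precursors, had -0.81 and -0.76 with imatinib and -1.14 and -1.24 with nilotinib. The pseudouridine synthase PUS7 had -0.71 and -1.17. Higher were LAGE3 and ELAC2 with imatinib (0.45 each) and ADAT1 (0.60) and ELAC2 (0.41) with nilotinib, and under median centring 0 genes of this list were called higher.

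Of 13 mitochondrial translation factors and tRNA enzymes, 5 were called lower and 1 higher with imatinib (all genes 17.3% and 22.0%), and 5 lower and 2 higher with nilotinib (all genes 23.5% and 34.7%). MTIF2, the mitochondrial initiation factor, had -0.80 ± 0.06 and -0.94 ± 0.06 (SE), and TUFM, the mitochondrial elongation factor, -0.62 ± 0.08 and -0.86 ± 0.08. The tRNA-modifying MTO1 had -0.76 and -0.85. Of 6 genes of cytosolic elongation and release, 4 were called lower with each drug (17.3% and 23.5% of all genes), including the release factors GSPT1 (-0.77 and -1.16) and ETF1 (-0.76 and -0.83). EEF1A1 was called higher with nilotinib by 0.20 as deposited, and 0 genes of this list were called higher under quantile normalization or median centring. Cyclic loess left 1 gene of this list called higher with nilotinib, and leaving out the arrays of high actin ratio also left 1.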

How the data were processed

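K562 RNA was measured on 12 arrays, 4 per group by their titles. The deposited values are linear signal intensity per probe set, made with MAS5 per the submitters' processing notes and scaled to a trimmed mean of about 500.1 per array, and the number of arrays limits their precision. Members were matched through the platform annotation with symbols updated by gene identifier. Values were taken as log2(signal + 16), so folds of dim genes are understated. Probe sets naming several genes, and those below the 40th percentile of mean value, were left out, and the brightest probe set stood for a gene. All 8021 genes were fitted in R 4.3.3 by limma 3.58.1, as group means with trended variances and moderated two-sided tests, and Benjamini-Hochberg adjustment per comparison, called at 0.05. The script was tested on simulated data. No 2 arrays held identical values, and 0 value columns were left unmapped.

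The members and lists were chosen with earlier results of these data known. Values per array are given for the 8 cytosolic or scaffold and 6 mitochondrial tested members of largest mean change, for members whose probe sets differ, for HARS1 beside HARS2, and for MARS1 and QARS1; up to 4 called genes are named per other list. Alternatives changed the pseudocount, filter, scaling, probe set choice, variance model, minimum change and arrays used.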

Additional observations from a re-analysis of the deposited data

Results flagged for a closer look

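In 87 groups of 4 arrays (29 members in 3 groups) 3 held an array far from the other arrays of its group by Dixon's ratio, where chance gives about 1 in 20. RARS1 had a signal of 1656 in DMSO replicate 9, against 1089 to 1166 in the other DMSO arrays. FARSA had 276 in imatinib replicate 8, against 557 to 589.6. HARS1 had 634 in nilotinib replicate 2, against 569.7 to 578. Without DMSO replicate 9 RARS1 kept its calls at -0.52 and -0.66, and without imatinib replicate 8 FARSA was at 0.0029 with imatinib, not called, and was called lower with nilotinib (-0.35, limma adjusted p = 0.0294).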

How the results depend on the processing

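Alternatives were computed for the 9 counts and 59 member values. With each array left out in turn, cytosolic synthetases called lower ran from 13 to 14 with each drug, and mitochondrial ones from 2 to 3 with imatinib and stayed at 3 with nilotinib; between the drugs these were 1 to 4 and 0 to 1, and all genes called 692 to 1051. Requiring a change beyond 0.5 (treat) left 632, 1386 and 0 genes called (imatinib, nilotinib, between drugs), 9 and 12 cytosolic synthetases lower with the drugs and 0 between them, and 0 and 1 mitochondrial. Median centring gave 4 and 9 mitochondrial synthetases lower, and between drugs 2722 genes, 14 cytosolic and 7 mitochondrial. Quantile normalization gave 1 mitochondrial with imatinib and cyclic loess 5 with nilotinib. Without arrays of high actin ratio 416 genes were called between drugs. With no filter, the most variable probe set, no variance trend, array weights, 2 groups only, or probe sets tested separately (chosen after seeing the data), 1 cytosolic synthetase was lower between drugs.

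Of the 59 member values, those that changed sign belonged to EPRS1, FARSA, AIMP1, CARS2, HARS2, SARS2, WARS2 and YARS2, none of them called as deposited; the cause was not tested. Of the 3 genes fitted apart, QARS1 with nilotinib, called higher as deposited, turned to -0.10 with median centring and between drugs went from -0.11 to 0.00079 with quantile normalization, and TARS2 between drugs went from -0.13 to 0.96 without arrays of high actin ratio, none of these 3 alternative values called. With imatinib, median centring gave EPRS1 -0.13, AIMP1 -0.087, CARS2 -0.017, HARS2 -0.11 and YARS2 -0.21; with nilotinib EPRS1 -0.52, AIMP1 -0.49 and HARS2 -0.36. The mean of all probe sets gave EPRS1 -0.072 and -0.23 and AIMP1 -0.31 and -0.46; the most variable probe set gave EPRS1 -0.020 and -0.13 and AIMP1 -0.76 and -0.95. Without arrays of high actin ratio EPRS1 was -0.020 and -0.054, SARS2 0.20, WARS2 0.12 and YARS2 -0.032 with imatinib, and CARS2 0.10 and HARS2 -0.017 with nilotinib. YARS2 was -0.043 and -0.042 with imatinib under quantile normalization and cyclic loess, EPRS1 -0.0086 with array weights and CARS2 0.00069 with a pseudocount of 64 with nilotinib. Leaving out an array, FARSA ran from -0.35 to 0.0029, SARS2 from -0.17 to 0.061, WARS2 from -0.099 to 0.097 and YARS2 from -0.014 to 0.066 with imatinib, and EPRS1 from -0.022 to 0.033, AIMP1 from -0.045 to 0.14, CARS2 from -0.089 to 0.15 and YARS2 from -0.080 to 0.027 with nilotinib.

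No paired analysis was possible because the replicate numbers in the labels are not shared between groups. Dim probe sets limit RARS2, TARS2, SARS2 and WARS2, whose intervals are wide.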
